A study of Homo sapiens with 4 samples.

Results

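The histone gene clusters on the short arm of chromosome 6 were examined for open chromatin in SK-N-BE(2)C, a neuroblastoma cell line with MYCN amplification. The members are the protein-coding GENCODE genes between 25.7 and 28 Mb of chromosome 6 (GRCh38) whose symbols begin with H1-, H2AC, H2BC, H3C or H4C. There are 55 of them among 19970 protein-coding genes on chromosomes 1 to 22 and X. They comprise 6 H1, 12 H2A, 15 H2B, 10 H3 and 12 H4 genes. The rule used position and name alone and no measured value, though it was set with earlier results of these data known.

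The assay was ATAC-seq, in which the transposase Tn5 cuts open DNA and inserts sequencing adapters. The study asked how depletion of SNHG1, a long non-coding RNA that hosts small nucleolar RNAs, changes chromatin in these cells. Cells of the control group received a non-targeting gRNA and are labelled wildtype, and those of the sgSNHG1 group received SNHG1 gRNA and are labelled SNHG1 knockout. Both groups are stable clones of cells that expressed Cas9 with a guide RNA and were grown without further treatment before harvest. The sgSNHG1 clones carried a pair of guides against the SNHG1 locus, were selected with puromycin, and were isolated as single cells, and the study describes them as depleted rather than null. A difference between groups can therefore also be a difference between clones, and these cannot be told apart. Each group had 2 replicates, which were pooled before peaks were called. Every value below thus comes from 1 peak list per group, with no replicate spread and no test between the groups. The intervals given are taken over genes as if these were independent. They cover neither replicate spread nor the error of the pileups.

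There were 47610 control and 42682 sgSNHG1 peaks, with median summit pileups, the fragments that cover the highest point of a peak, of 24 and 20. The narrowest peak was 119 bases in control and 92 bases in sgSNHG1. Of the adrenergic neuroblastoma markers, MYCN, HAND2, ISL1, TBX2 and DBH had a peak within 1 kb of the TSS (transcription start site) in both lists, GATA3 in sgSNHG1 alone and TH in neither. The mesenchymal markers VIM, FN1 and TWIST1 also had one in both lists, and PRRX1 had none. Fold enrichment, the summit pileup relative to what the caller took as local background, is the measure of peak height used throughout. The SNHG1 start was enriched 5.71-fold in control and 6.04-fold in sgSNHG1, a value that does not measure how much SNHG1 RNA was left. The 5 adrenergic markers with a peak in both lists were lower in sgSNHG1. Their log2 ratios of fold enrichment ran from -0.37 to -0.01 (median -0.18). Over all protein-coding genes with a peak in both lists the median was -0.08, and 39.1% were higher. Of the 5 markers, only MYCN (-0.14) lay over 2 Poisson errors of its pileups from 0. Its pileups of 3507 in control and 2068 in sgSNHG1 give a small error of 0.04, and it lay under 2 errors from the median of all genes. The mesenchymal ratios were 0.06 for FN1, 0.11 for TWIST1 and -0.02 for VIM. The GATA3 peak had a pileup of 19.

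Replication-dependent histone genes supply the histones that package newly copied DNA, and they are transcribed mainly in S phase. The core histones H2A, H2B, H3 and H4 form the nucleosome, while the linker histone H1 binds where DNA enters and leaves it. Their mRNAs carry a stem-loop bound by SLBP in place of a poly(A) tail, and their transcription is driven by NPAT, a substrate of cyclin E and CDK2, in nuclear bodies that form at these clusters.

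Many of these genes encode the same protein from different DNA. In the GENCODE annotation the canonical transcript of 55 of the 55 members has a single exon. The 10 H3 genes encode 1 protein of 136 residues, although their coding sequences had a median pairwise identity of 85.5%. Of the 12 H4 genes, 11 encode 1 protein of 103 residues and H4C7 encodes another of 98 residues. The 12 H2A genes encode 7 distinct proteins and the 15 H2B genes 11. The 6 H1 genes encode 6 different proteins, with a median pairwise identity of 68.2%.

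Promoter sequences were available from RefSeq (GRCh38.p14) for 50 of the 55 members, each with 250 bases before and 50 bases after the start. Entries for H2AC12, H3C11, H3C12, H4C1 and H4C3 were not used here. Below are the bases before the start of members on which the results turn, with capitals marking a match, on either strand and over the whole stretch, to short sequences of histone promoters. These were the TATA box, searched as TATAAA, and the box that binds NF-Y and is named after its letters, CCAAT. The others were the octamer of H2B promoters, searched as ATTTGCAT, the element of H1 promoters called the H1 box, searched as AAACACA, and the core of the H4 promoter site of the factor HINFP, called the H4 element and searched as GGTCCG. H4C4 (chr6:26189113-26189362, minus strand) had the highest fold enrichment of the clusters in both lists, and H4C13 (chr6:27873535-27873784, minus strand) the highest ratio of sgSNHG1 to control.
H4C4: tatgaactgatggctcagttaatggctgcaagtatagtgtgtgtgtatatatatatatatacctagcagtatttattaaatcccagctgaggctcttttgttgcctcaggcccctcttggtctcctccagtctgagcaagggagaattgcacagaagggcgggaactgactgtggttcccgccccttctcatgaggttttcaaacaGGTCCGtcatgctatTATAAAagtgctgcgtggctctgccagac
H4C13: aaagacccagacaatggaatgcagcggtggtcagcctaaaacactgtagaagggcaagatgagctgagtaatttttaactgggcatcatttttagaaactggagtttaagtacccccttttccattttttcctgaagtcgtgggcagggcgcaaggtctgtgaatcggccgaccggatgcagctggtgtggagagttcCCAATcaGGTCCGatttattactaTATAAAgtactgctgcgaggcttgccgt
Both H4 promoters held GGTCCG, which began 44 bases before the start in H4C4 and 45 bases before it in H4C13, and a TATA box 29 and 28 bases before the start. H4C7 (chr6:26246997-26247246, minus strand), which had no peak in either list, held no GGTCCG, and its TATA box began 42 bases before the start. H4C6, the other H4 gene with no peak, did hold GGTCCG, 46 bases before its start.
H4C7: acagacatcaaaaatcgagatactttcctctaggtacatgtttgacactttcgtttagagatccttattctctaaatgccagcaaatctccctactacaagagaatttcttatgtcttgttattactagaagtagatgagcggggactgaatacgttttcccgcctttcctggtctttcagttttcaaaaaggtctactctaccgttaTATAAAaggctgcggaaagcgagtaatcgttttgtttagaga
Among H1 genes, H1-4 (chr6:26156079-26156328, plus strand) had a peak in both lists and H1-1 (chr6:26017788-26018037, minus strand) in neither. Both held an H1 box, a CCAAT box 54 bases before the start, and a TATA box. The H1 box lay on the sense strand in H1-4, 117 bases before the start. In H1-1 it lay on the other strand, 183 bases before the start. H1-6, which also had no peak, held an H1 box on the sense strand.
H1-4: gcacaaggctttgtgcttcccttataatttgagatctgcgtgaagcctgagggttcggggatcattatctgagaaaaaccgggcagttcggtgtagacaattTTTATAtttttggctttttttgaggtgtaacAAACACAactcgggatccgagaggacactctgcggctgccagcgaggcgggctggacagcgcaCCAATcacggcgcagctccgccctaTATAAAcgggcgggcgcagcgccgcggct
H1-1: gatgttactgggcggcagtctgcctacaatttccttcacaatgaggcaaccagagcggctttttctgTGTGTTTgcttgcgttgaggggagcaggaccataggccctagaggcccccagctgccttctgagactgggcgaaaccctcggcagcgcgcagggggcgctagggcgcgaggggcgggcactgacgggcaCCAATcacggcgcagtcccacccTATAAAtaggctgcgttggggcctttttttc
The H3 genes H3C8 (chr6:26271414-26271663, minus strand) and H3C3 (chr6:26045134-26045383, plus strand) each held 4 CCAAT boxes in almost the same places, and the closest to the start began 52 bases before it in both. H3C8 had a peak in both lists and the lowest ratio of the clusters when the highest peak of each list was compared, and H3C3 had none.
H3C8: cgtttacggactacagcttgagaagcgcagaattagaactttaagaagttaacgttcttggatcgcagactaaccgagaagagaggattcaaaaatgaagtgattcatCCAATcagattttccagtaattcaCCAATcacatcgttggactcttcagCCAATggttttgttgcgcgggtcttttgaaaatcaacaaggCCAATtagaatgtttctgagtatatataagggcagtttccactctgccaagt
H3C3: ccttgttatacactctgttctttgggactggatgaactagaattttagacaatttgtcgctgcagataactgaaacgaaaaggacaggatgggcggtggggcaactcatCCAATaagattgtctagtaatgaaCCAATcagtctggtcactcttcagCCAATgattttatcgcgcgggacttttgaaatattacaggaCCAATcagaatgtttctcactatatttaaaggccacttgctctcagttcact
H3C1 (chr6:26020201-26020450, plus strand) had its start covered by a peak in sgSNHG1 alone, as did its neighbour H4C1, and it held 2 CCAAT boxes and a TATA box 29 bases before the start.
H3C1: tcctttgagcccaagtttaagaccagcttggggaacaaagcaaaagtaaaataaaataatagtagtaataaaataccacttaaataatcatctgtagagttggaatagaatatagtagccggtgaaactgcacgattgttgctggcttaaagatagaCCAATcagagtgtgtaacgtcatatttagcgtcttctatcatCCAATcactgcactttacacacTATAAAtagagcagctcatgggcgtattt
Many H2A and H2B genes are transcribed away from each other from a shared intergenic stretch. That of H2AC7 and H2BC7 (chr6:26199294-26199515, read along the H2BC7 strand) had a peak in both lists, and that of the testis histone genes H2AC1 and H2BC1 (chr6:25726563-25726776, read along the H2BC1 strand) had none. Both held 3 CCAAT boxes and an octamer.
H2AC7/H2BC7: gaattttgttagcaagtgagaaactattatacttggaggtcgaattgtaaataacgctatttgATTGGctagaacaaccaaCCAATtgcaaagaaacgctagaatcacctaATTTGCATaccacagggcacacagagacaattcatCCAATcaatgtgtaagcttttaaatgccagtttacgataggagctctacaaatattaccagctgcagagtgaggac
H2AC1/H2BC1: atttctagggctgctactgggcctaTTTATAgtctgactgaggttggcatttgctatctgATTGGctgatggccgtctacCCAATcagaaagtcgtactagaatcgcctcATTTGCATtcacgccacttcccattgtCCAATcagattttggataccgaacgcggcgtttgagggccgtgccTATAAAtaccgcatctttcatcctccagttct

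Matches were frequent across the clusters and differed between families. A CCAAT box was found in the 300-base window of 43 of the 50 members (86.0%), against 34.6% of all 35116 RefSeq promoter entries. It was present in every H1, H2A, H2B and H3 entry and in 3 of 10 H4 entries. The TATA box was found in 34 of 50 (68.0%), against 11.5% of all entries, and in 26 members it lay on the sense strand and began between 40 and 20 bases before the start. The octamer, a site of POU2F1, occurred in 9 of 11 H2A and 12 of 15 H2B entries, and in no H1, H3 or H4 entry, against 1.77% of all entries. The windows of divergent H2A and H2B genes overlap, so that many of these matches are the same site. The H1 box was found in 6 of 6 H1 entries and in no other family, against 5.64% of all entries, and the H4 element in 9 of 10 H4 entries, against 11.3%. The CCAAT box was found in 7 of 8 members with no peak and in 36 of 42 with one, and the TATA box in 5 of 8 and 29 of 42. For the octamer these counts were 3 and 18, for the H1 box 2 and 4, and for the H4 element 1 and 9, and 8 members are too few to compare such shares. The median GC content of the members' windows was 42.5%, below the 58.7% of all entries.

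Open chromatin was found at most of the histone starts in both lists. A TSS peak, defined as one within 1 kb of the start in either direction, was present in 47 of 55 members in control (85.5%, 95% Wilson interval 73.8 to 92.4) and in 45 of 55 in sgSNHG1 (81.8%, 69.7 to 89.8). Among all protein-coding genes the same was true of 58.4% in control and 54.2% in sgSNHG1. The members exceeded the other protein-coding genes by 27.2 percentage points in control (Newcombe interval 15.5 to 34.2) and by 27.7 in sgSNHG1 (15.5 to 35.7). Peaks were present at 45 members in both lists and at 2 in control alone, and no member had a peak in sgSNHG1 alone. The share with a peak in control alone was thus 2 of 55, where all protein-coding genes gave 5.71%.

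Members share peaks, so that genes are not independent observations, and the intervals, which count each gene, take no account of this. Joined by shared peaks, the 55 genes formed 42 regions, of which 12 held several genes. A control peak was present in 34 of the 42 regions (81.0%) and an sgSNHG1 peak in 32 (76.2%). The starts were served by 43 distinct peaks in control and 42 in sgSNHG1, of which 37 in each list overlapped a peak of the other.

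**Figure D1:**
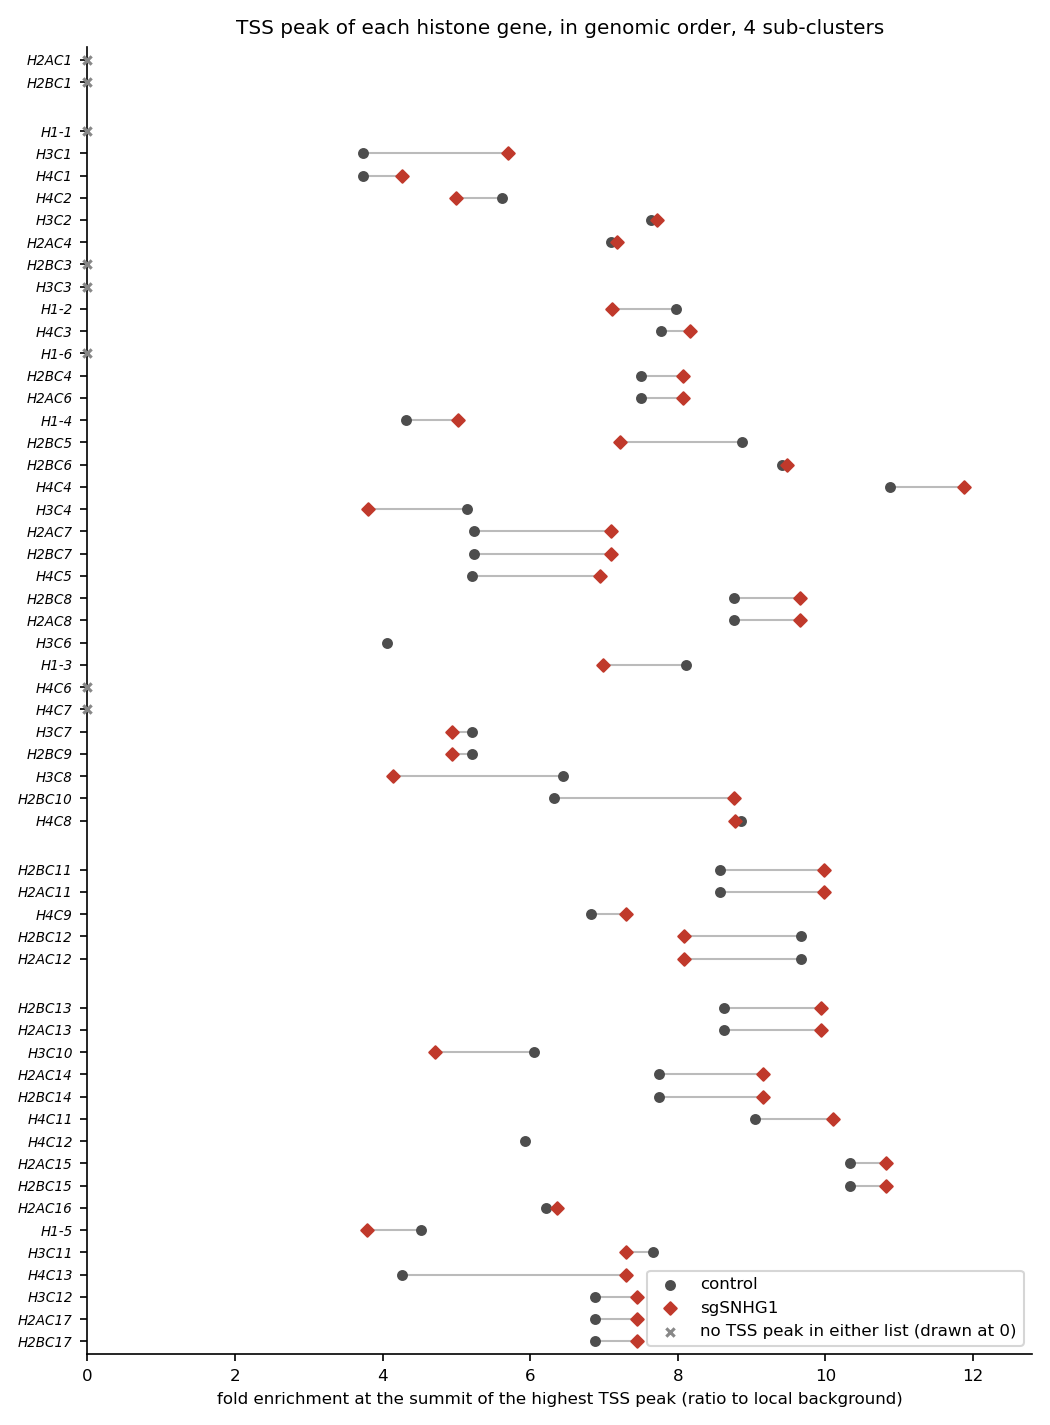
Fold enrichment (horizontal axis, ratio to local background) of the highest TSS peak of each of the 55 histone genes, listed in genomic order and split into 4 sub-clusters by gaps. Circles are the control list, diamonds the sgSNHG1 list, and crosses at 0 mark the 8 genes with no TSS peak in either list, while H3C6 and H4C12 have a control value alone.

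The 2 genes with a peak in control alone had weak or partly ambiguous peaks. H3C6, an H3 gene, was enriched 4.06-fold in control from a pileup of 12 fragments, with a -log10 q of 3.82, where q is the false discovery rate given by the peak caller. H4C12, an H4 gene, was enriched 5.93-fold in control from a pileup of 18 fragments, with a -log10 q of 8.77. Its coding sequence is identical to that of H4C11, which had a peak in both lists. Of the 75-base sequences within 250 bases of the start, 53.5% occur once in the genome for H4C12 and 38.7% for H4C11. Reads with several hits were removed before deposition. How far that, or the smaller number of peaks in the sgSNHG1 list, bears on the missing peak was not tested.

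The 8 members with no peak in either list came from every family. H2AC1 and H2BC1, the divergent pair that encodes the testis forms of H2A and H2B, make up a sub-cluster of their own, and H1-6 encodes the testis form of H1. The others were H1-1, which encodes the H1.1 subtype, the H2B gene H2BC3, the H3 gene H3C3, and the H4 genes H4C6 and H4C7. H2BC3 and H3C3 are neighbours, as are H4C6 and H4C7. Their surroundings are almost free of repeated sequence, and 99.2% to 100% of the 75-base sequences within 1 kb of these 8 starts occur once in the genome. With a window of 3 kb, H4C7 gained a peak in control alone and H1-1 in sgSNHG1 alone, and the other 6 still had none. The wider windows reach peaks of other members, for H4C7 a control peak counted for H3C7 and for H1-1 the sgSNHG1 peak over the H3C1 start.

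Peaks were spread unevenly over the 4 sub-clusters formed where neighbouring starts lie over 200 kb apart. The largest, from H1-1 to H4C8, holds 32 members in 270 kb, of which 26 had a peak in control and 25 in sgSNHG1. From H2BC11 to H2AC12, 5 of 5 members had a peak in both lists. From H2BC13 to H2BC17, it was 16 of 16 in control and 15 of 16 in sgSNHG1. The 2-member sub-cluster of H2AC1 and H2BC1 had no peak. Within these stretches nearly every peak lay at a member, and peaks away from members numbered 4 of 47 in control and 3 of 45 in sgSNHG1.

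The summits sat close to the start, on its upstream side. The median summit position was 56 bases upstream of the TSS in control and 75 bases upstream in sgSNHG1. Between 250 bases upstream and 50 bases downstream lay 43 of 47 control summits (91.5%) and 39 of 45 sgSNHG1 summits (86.7%), against 54.6% and 58.4% over all protein-coding genes with a TSS peak. H2B summits lay farthest upstream, with medians of 124 bases in control and 131 bases in sgSNHG1, while the 4 H1 summits of each list lay within 47 bases of the start.

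**Figure D2:**
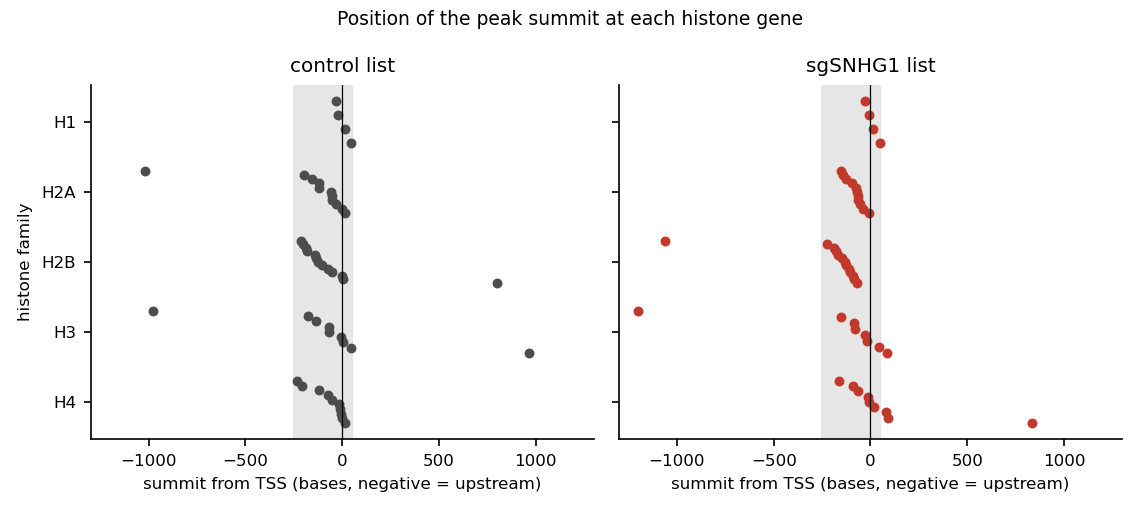
Position of the summit of the highest TSS peak relative to the start (horizontal axis, bases, negative is upstream) for each histone family in the control list (left) and the sgSNHG1 list (right). Each point is a gene, the grey band spans 250 bases upstream to 50 bases downstream, and 43 of 47 control and 39 of 45 sgSNHG1 summits lie inside it.

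Divergent pairs carried some of the strongest peaks. There were 11 pairs of members whose starts face away from each other within 1 kb, with starts 170 to 979 bases apart (median 240). Of these, 10 join an H2A to an H2B gene, and H3C7 with H2BC9 is the exception. A peak overlapped the stretch between the starts in 10 of 11 pairs in both lists, the pair without one being H2AC1 and H2BC1. Between H3C7 and H2BC9, the pair farthest apart, peaks lay at either end and left the middle uncovered. The highest such summit lay between the starts in 9 of 10 pairs in each list. The 20 genes of these pairs that had a peak were enriched 8.16-fold at the median in control and 8.62-fold in sgSNHG1, and the other members 6.45-fold and 7.18-fold.

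H4C4 was the most enriched member, enriched 10.9-fold in control (pileup 39) and 11.9-fold in sgSNHG1 (pileup 38). The H2AC15/H2BC15 peak followed, with 10.3 in control (pileup 63) and 10.8 in sgSNHG1 (pileup 55). The H2BC12/H2AC12 peak had 9.68 in control (pileup 54) and 8.08 in sgSNHG1 (pileup 37). Of the 5 members with the highest control value, only H4C4 had a peak of its own.

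Fold enrichment was compared between the lists in the 45 members with a peak in both. The value of a gene is that of its highest TSS peak, and both its terms, summit pileup and local background, come from the same list. Over these members it ranged from 3.74 to 10.9 in control (median over all with a peak, 7.50) and from 3.79 to 11.9 in sgSNHG1 (median 7.45). The log2 ratio of sgSNHG1 to control had a median of 0.11 (order-statistic interval 0.01 to 0.14), with quartiles of -0.08 and 0.20. It was above 0 in 31 of 45 members (68.9%), where 39.1% of 10513 protein-coding genes lay above 0 and the median was -0.08. Each distinct pair of peaks counted once gave 34 pairs, of which 22 were higher (64.7%), with a median of 0.07 and an interval of -0.07 to 0.16 that includes 0. Members were thus spread around a ratio near equality, slightly above the other genes.

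No single member lay over 2 counting errors from equality, as was the case for all but 209 of 10513 protein-coding genes. The largest ratio was 1.77 counting errors from 0, with a median counting error (the Poisson error of both pileups on the log2 scale) of 0.35. A log2 ratio of at least 0.5 was reached by 2 of 45 members, H4C13 and H3C1, against 1.82% of all genes, and a ratio of -0.5 or below by 1, H3C8, against 7.69%.

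The 4 H1 genes with a peak fell into a higher and a lower pair. H1-2, which encodes the H1.2 subtype, was enriched 7.97-fold in control and 7.11-fold in sgSNHG1 (log2 ratio -0.17, counting error 0.38). For H1-3 (H1.3) the values were 8.11 and 6.99 (log2 ratio -0.22, error 0.45). H1-4 (H1.4) had 4.32 in control and 5.03 in sgSNHG1 (log2 ratio 0.22, error 0.41). H1-5 (H1.5) had 4.52 in control and 3.79 in sgSNHG1 (log2 ratio -0.25, error 0.44). The family median was -0.19, with 1 of 4 genes higher, and every one of these ratios lies within its error.

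H2A and H2B genes, which share most of their peaks, had like ratios. The median log2 ratio was 0.12 in 11 H2A genes, with 10 higher, and 0.12 in 13 H2B genes, with 10 higher. The H2A family was enriched 7.74-fold at the median in control and 8.08-fold in sgSNHG1, and the H2B family 8.57-fold and 8.76-fold. The highest ratios of these families were those of H2BC10, which went from 6.32 (pileup 30) to 8.76 (pileup 37) (log2 ratio 0.47, error 0.35), and of the H2AC7/H2BC7 peak, which went from 5.23 (pileup 32) to 7.09 (pileup 35) (log2 ratio 0.44, error 0.35). H2BC5 had the lowest, with 8.88 in control (pileup 54) and 7.21 in sgSNHG1 (pileup 35) (log2 ratio -0.30, error 0.31). H2BC12 and H2AC12 came next at -0.26, also with an error of 0.31.

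H2BC6 rests on a start that the annotations place differently. Its GENCODE gene record begins 11702 bases before its RefSeq start, and the peak counted for it (fold enrichment 9.41 in control and 9.48 in sgSNHG1) lies at the GENCODE position. No peak lay within 1 kb of its RefSeq start in either list.

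H3 genes had lower values than the other core histones, and the median of their ratios lay near that of all genes. They were enriched 6.05-fold at the median in control and 5.32-fold in sgSNHG1. Their median log2 ratio was -0.07 in 8 genes, with 3 higher (37.5%), where all protein-coding genes gave -0.08 and 39.1%. This median includes H3C1, H3C7 and H3C11, whose highest peaks in the lists did not overlap. Among the H3 genes whose peaks overlapped, H3C2 (0.01) and H3C12 (0.12, a peak shared with H2AC17 and H2BC17) were higher. The others, H3C8, H3C4 and H3C10, were lower. H3C8 went from 6.45 (pileup 31) to 4.14 (pileup 17) (log2 ratio -0.64, error 0.44). H3C4 went from 5.14 (pileup 29) to 3.81 (pileup 17) (log2 ratio -0.43, error 0.44). H3C10 went from 6.05 (pileup 40) to 4.71 (pileup 29) (log2 ratio -0.36, error 0.35). By the highest peak of each list, these 3 genes held the lowest ratios of the clusters, and each was picked for that from 45 members.

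H3C1 compared different sites in the lists. In sgSNHG1 a peak covered its start (chromosome 6, 26020310 to 26020495) 5.70-fold enriched from a pileup of 26, and no control peak was called there. The control value of 3.74, from a pileup of 14, belongs to a peak with its summit 965 bases downstream that also serves H4C1. Its log2 ratio of 0.61, with an error of 0.48, is therefore not a ratio at 1 site. The same held for 6 other members, H4C2, H2BC4, H2AC6, H3C7, H2BC9 and H3C11, whose highest peaks in the lists did not overlap. Such different sites were thus compared in 7 of 45 members, and in 254 of 10513 protein-coding genes with a peak in both lists. Across the 38 members whose peaks did overlap, the median log2 ratio was 0.12, with 28 higher. For H4C2, the peaks that cover its start were enriched 5.61-fold in control (pileup 31) and 3.53-fold in sgSNHG1 (pileup 16). Compared at that start, its ratio would be below the -0.64 of H3C8, where its highest peaks gave -0.17.

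H4 genes were enriched 6.38-fold at the median in control and 7.30-fold in sgSNHG1, with a median log2 ratio of 0.13 in 9 genes, with 7 higher. H4C13 had the highest ratio of the clusters, from 4.26 (pileup 18) to 7.30 (pileup 27) (log2 ratio 0.78, error 0.44). Its peak was 200 bases wide in control and 595 bases in sgSNHG1, where it reached the window of H3C11 as well. That of H4C4 was 0.13, with an error of 0.33.

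**Figure D3:**
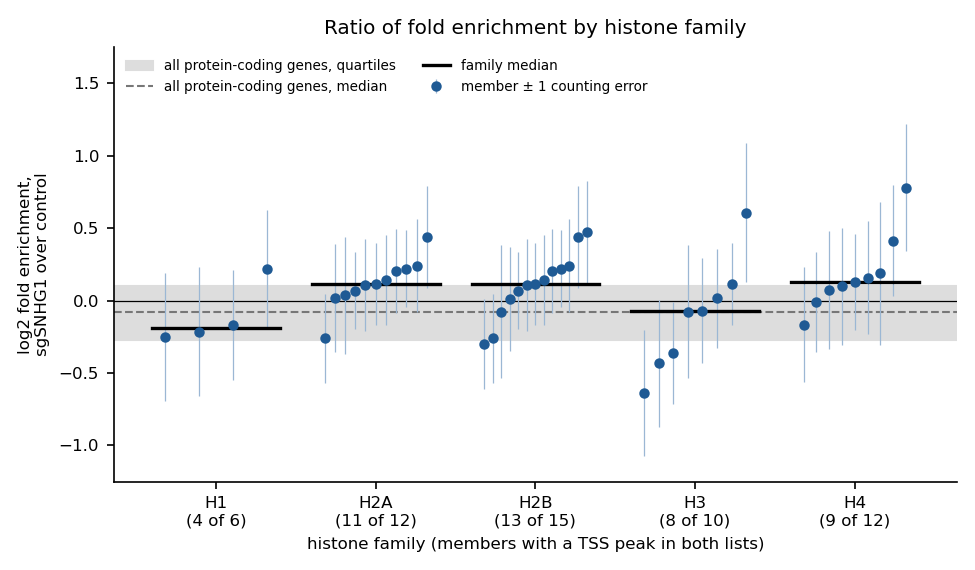
Log2 of the sgSNHG1 to control ratio of fold enrichment (vertical axis) for the 45 histone genes with a TSS peak in both lists, by family. Points are genes with 1 counting error, black bars are family medians (H1 -0.19, H2A 0.12, H2B 0.12, H3 -0.07, H4 0.13), and the grey band and dashed line are the quartiles and median of all protein-coding genes.

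Peak height on another scale gave the same direction. The scaled pileup, the summit pileup over the lowest local background of the list, had a median log2 ratio of 0.18 (0.07 to 0.24) and was higher in sgSNHG1 in 34 of 45 members, against 44.4% of all genes with a median of -0.05. The 9 neighbouring genes with a peak in both lists had a median of 0.21 on this scale, with 6 higher. On the fold enrichment scale the same neighbours had a median of 0.03, with 5 of 9 higher, below the 0.11 of the members, so that their order depended on the scale.

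Peaks at the histone starts were narrower in sgSNHG1 in most members, by less at the median than over all genes. The median width went from 476 bases in control to 449 bases in sgSNHG1, and over all protein-coding genes from 635 to 462 bases. Width was lower in sgSNHG1 in 32 of 45 members (median log2 ratio -0.15, interval -0.31 to -0.02), against 84.3% of all genes (median -0.39). Each distinct pair of peaks counted once gave a median of -0.16 with an interval of -0.42 to 0.01, which includes both 0 and the -0.40 of all genes under that count, so that a difference from the other genes was not resolved.

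The histone genes stood apart from their neighbours in how often they had a peak. Of the 20 other protein-coding genes between the outermost members, 10 had a TSS peak in control and 9 in sgSNHG1. The share of members was higher by 35.5 percentage points in control (12.3 to 56.7) and by 36.8 in sgSNHG1 (12.7 to 57.6). BTN3A3, a butyrophilin gene, had a peak in control alone (fold enrichment 6.87). The lowest log2 ratios among neighbours were -0.27 for BTN2A1 and -0.26 for ZNF184, and the highest 0.43 for ZNF322 and 0.44 for ENSG00000282988. The last of these is annotated with the same start as H2AC7 and shares the H2AC7/H2BC7 peak, so that a histone start is counted among the neighbours with a peak.

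**Figure D4:**
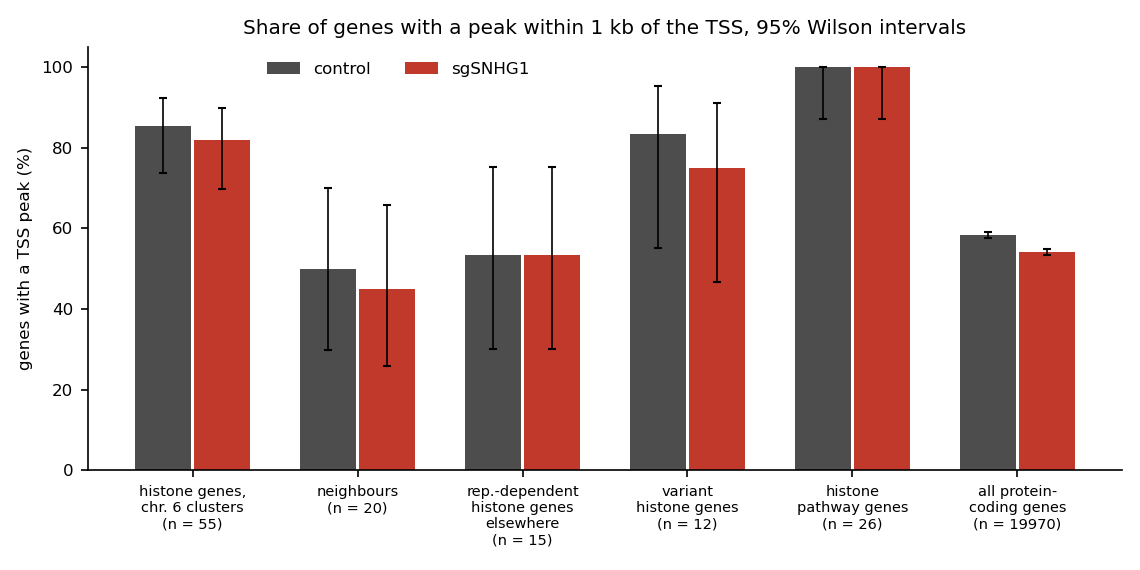
Share of genes with a peak within 1 kb of the TSS (vertical axis, percent) in the control and sgSNHG1 lists, with 95% Wilson intervals, for the histone clusters and 5 comparison sets whose sizes stand under the bars. The histone clusters lie at 85.5% and 81.8%, the neighbours at 10 and 9 of 20 genes, and all protein-coding genes at 58.4% and 54.2%.

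Other histone genes gave a mixed picture. Of the 15 replication-dependent genes elsewhere in the genome, 8 had a peak in both lists and 7 in neither, H4C14, H3C14, H2AC18, H2AC19, H3C15, H4C15 and H2BC12L. For 7 of these 7 genes no 75-base sequence within 250 bases of the start occurs once in the genome, and the 8 genes with a peak had 50.3% to 100% such sequences. The deposited peaks therefore cannot tell whether these 7 starts were closed, and the difference of 32.1 percentage points from the members in control (7.37 to 56.4) is not read as one of accessibility. The 8 genes had a median log2 ratio of 0.07. Among 12 genes of replacement and variant histones, which are made outside S phase as well, 10 had a peak in control and 9 in sgSNHG1, and the difference of 2.12 points from the members in control (-14.6 to 31.1) included 0. The median log2 ratio of that list was -0.06.

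The genes of histone transcription, mRNA processing and chaperoning had open starts in both lists. All 26 genes of these lists had a TSS peak in control and in sgSNHG1, against 58.4% and 54.2% of all protein-coding genes. Their median log2 ratio was -0.02, with 12 of 26 higher, where all protein-coding genes gave -0.08 and 39.1%. NPAT had nearly the same enrichment in both, with a log2 ratio of 0.00 and pileups of 189 and 132. SLBP, which binds the stem-loop of histone mRNA, had the lowest ratio, from 6.95 (pileup 41) to 4.54 (pileup 22) (log2 ratio -0.61, error 0.38). ATRX, a remodeller that works with DAXX to deposit H3.3, came next at -0.42 with an error of 0.43. The highest were HAT1, the acetyltransferase of new H4, at 0.41 with an error of 0.28, and CHAF1A, a subunit of the chromatin assembly factor CAF-1, at 0.38 with an error of 0.33. Each of these ratios is under 2 counting errors.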

How the data were processed

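The authors trimmed adapters, aligned 75-base read pairs to GRCh38, and removed duplicate, multiply mapped, improperly paired, mitochondrial and blacklisted reads. They shifted read ends for the transposase, combined the 2 replicates of a group, and called peaks in paired-end mode. The submitters' processing notes name cutadapt, BWA, GATK, Picard, deepTools, MACS2 and ChIPseeker, and their versions are not given in the sources used here. Groups follow the labels' treatment, and the files hold 1 pooled list per group.

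The score deposited by the authors follows the -log10 q. Fold enrichment, as deposited, is the ratio of the summit pileup to the local background, with a pseudocount on each. The deposited -log10 p tests that pileup under a Poisson distribution, and the deposited -log10 q adjusts it. The deposited summit position is an offset within the peak.

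The pileup and background were solved from fold enrichment and -log10 p, within 0.001 for 47609 of 47610 control and 42682 of 42682 sgSNHG1 peaks. The code was tested on simulated data. Genes came from GENCODE 44. A TSS peak overlapped 1 kb on either side of the start by at least 1 base. Counting errors of ratios are Poisson errors of the pileups. Shares have 95% Wilson intervals, differences of shares Newcombe intervals, and medians order-statistic intervals, all taken over genes as if these were independent. Exact 75-base matches were counted over the genome on both strands. Protein identity came from translated GENCODE coding sequences. Alternatives were other windows, starts, peak thresholds, ways to choose a peak and subsets of members. Named genes are every H1 member, members with a peak in a single list or none, the 5 highest control values and the 5 lowest and highest ratios, and, of other lists, the genes with a peak in a single list and the 2 lowest and highest ratios. Genes outside this rule are named where a count or a site turns on them. A result that this rule would name is not reported here. Members and lists were chosen with earlier results of these data known. Python 3.11.15, NumPy 2.4.6, pandas 2.3.3, SciPy 1.17.1, statsmodels 0.14.6, Biopython 1.88 and matplotlib 3.10.9 were used.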

Additional observations from a re-analysis of the deposited data

How the results depend on the processing

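No paired analysis was possible because the replicates of a group were pooled before peaks were called, and for the same reason no replicate could be left out. Of 63 alternative values of the main results, 57 stayed within the interval of the value reported. Shares have no direction to change, and no median log2 ratio changed sign. With a -log10 q of at least 10, the share of members with a TSS peak fell to 69.1% in control, 65.5% in sgSNHG1 and 61.8% in both lists, against 46.4%, 38.8% and 37.5% of all protein-coding genes, and that of the regions counted once to 63.6% in control and 56.8% in sgSNHG1. Peaks that overlapped each other by 50% of both were present in 60.0% of members, against 40.3% of all protein-coding genes. The median log2 ratio of fold enrichment ranged from 0.07 to 0.12. Its interval included 0 for distinct pairs of peaks and, in settings chosen after seeing the data, without the H2A, H2B or H4 family or without members under 90% of unique 75-base sequences. Of 97 settings over 18 named genes, 6 changed the sign of a ratio, all with a window of 3 kb, where H1-4 (-0.30), H1-5 (0.04), H3C8 (0.44), H3C4 (0.44), H3C10 (0.20) and H4C13 (-0.07) took the value of a peak of a neighbouring gene. Pileups of 10 to 63 fragments at the members' peaks limit what a single ratio can show.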
